A study of Mus musculus with 3 samples.

Results

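Descending thin limb (DTL) cells are one of the loop of Henle (LOH) populations of the mouse renal medulla, and they were followed here in healthy kidneys and after reversible unilateral ureteric obstruction (R-UUO). The members are all cells to which the deposited annotation gives the cluster DTL and the cell type LOH. They number 17564 of 181257 cells, or 17564 of the 71510 LOH cells, and DTL is 1 of 7 LOH clusters and 1 of 25 clusters in all. In R-UUO the left ureter is clamped for several days and then released, so that the kidney recovers with a patent ureter, and in the long-term studies the opposite kidney was later removed. All mice were male BALB/c. Healthy controls had no obstruction and gave 4 pools with 9543 DTL cells, and no age is stated for them. The study treats nephrectomy-only mice as a separate group from healthy controls. Surgery and removal of the opposite kidney therefore cannot be told apart from obstruction in these comparisons. Mice operated on at 12 to 13 weeks of age gave 4 pools with 4245 DTL cells at day 28 after R-UUO and 2 pools with 3776 DTL cells at day 84. Each pool holds the tissue of 3 to 4 mice, so that the spread between pools is a spread between groups of animals and no value belongs to 1 mouse. The tissue label is kidney papilla, while the study's methods describe dissected medullas whose outer medullary content varied.

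The DTL carries tubular fluid from the end of the proximal tubule down into the medulla. Its cells are highly permeable to water through the channel aquaporin 1 (Aqp1), and they take up urea through a product of the urea transporter gene Slc14a2, which together serve the countercurrent mechanism that concentrates urine. The fluid then turns into the ascending thin limb (ATL), which lets salt but not water pass, and into the thick ascending limb (TAL), which pumps salt out of the tubule. The other LOH clusters are ATL, a further inner medullary thin limb cluster (IM-TL), 2 TAL clusters from the outer stripe of the outer medulla (OSOM-TAL_a and OSOM-TAL_b), a TAL cluster from its inner stripe (ISOM-TAL) and injured LOH cells (InjuredLOH). The values analysed here are the annotation, the UMI count, the number of detected genes and the mitochondrial percent of each cell. Expression of single genes was not analysed here, so that the name DTL was taken as given and was not checked against Aqp1 or Slc14a2.

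Some features of the data bear on every comparison of DTL cells. Cells of the same condition share droplets, and only 5.22% to 7.23% of the DTL droplet barcodes of one condition also occurred in another, which places each condition in a separate droplet run, and run and condition cannot be told apart. The depth moved with the condition, and the pools held 1139 to 1578 median UMIs per cell over all cells in the controls, 1566 to 3302 at day 28 and 751 to 911 at day 84. Proximal tubule cells, which lie outside the inner medulla, made up 0.113% to 3.02% of the cells of control pools, 2.95% to 22.8% at day 28 and 3.60% and 7.64% at day 84. Every share below is a share of recovered cells and gives no number of DTL cells per kidney.

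DTL cells were a smaller part of the LOH cells after R-UUO, and at day 28 the pools were clearly apart from the controls. The controls held 2170, 3057, 1994 and 2322 DTL cells, which were 29.7%, 28.0%, 32.9% and 29.9% of their LOH cells. The day 28 pools held 869, 903, 1317 and 1156 DTL cells, or 17.3%, 17.6%, 21.4% and 18.2%. The day 84 pools held 1539 and 2237 DTL cells, or 20.9% and 23.8%. All 6 pools after R-UUO were below the lowest control pool, and the day 84 values fell partly inside the day 28 range. Counting error is small beside these differences. The half-width of the 95% Wilson interval of each pool's share was 0.842 to 1.18 percentage points, while the SD between pools was 2.03 points in the controls, 1.90 at day 28 and 2.06 at day 84, and the binomial error alone would give 0.459 to 0.522 points.

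Shares were compared as log2 odds per pool with limma, and p-values were adjusted over the clusters tested. This method estimates the spread of each cluster over all pools and draws it towards a value shared by the clusters. The log2 odds of being DTL among LOH cells fell by 0.91 at day 28 (standard error 0.164, limma adjusted p = 5.14e-04), which is 1.89-fold lower odds. They fell by 0.59 at day 84 (standard error 0.201, limma adjusted p = 0.0236). In this test 85.7% of the 7 LOH clusters passed at day 28 and 71.4% at day 84, so that a changed share was common among LOH clusters. The exact two-sided permutation test gave p = 0.0286 at day 28, the smallest that 4 pools against 4 allow, and p = 0.0667 at day 84, the smallest that 2 against 4 allow. Day 84 was 0.33 higher than day 28 with an adjusted p of 0.319 by limma, where 28.6% of the LOH clusters passed. The day 84 difference from the controls did not pass without either day 84 pool (adjusted p = 0.170 without pool 1 and 0.0520 without pool 2 by limma), without control pool 3 (0.0541), without InjuredLOH cells in the denominator (0.450) or with the probe barcode as a term (0.0584), and over its 24 tested alternatives the adjusted p ran from 0.00237 to 0.924.

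Of all cells, DTL made up 11.1%, 12.6%, 13.8% and 11.4% in the control pools. The shares were 6.68%, 6.44%, 7.97% and 7.42% at day 28 and 7.79% and 9.43% at day 84, again with no overlap between the controls and either time after R-UUO. Ordered by number of cells, DTL ranked 1 to 3 among the 25 clusters of a control pool, 4 to 7 in the day 28 pools, and 3 and 2 in the day 84 pools. The log2 odds fell by 0.86 at day 28 (standard error 0.175, limma adjusted p = 0.00207), where 88% of the 25 clusters passed. At day 84 the difference was -0.57 (standard error 0.215, limma adjusted p = 0.0533), just short of the threshold, and 48% of clusters passed. Between day 84 and day 28 the difference was 0.29 (limma adjusted p = 0.368), and 8% of clusters passed. Proximal tubule cells varied between pools as given above. With them left out, the day 28 difference was -0.62 (limma adjusted p = 0.00835), and it passed in each of its 19 tested alternatives, with adjusted p from 1.49e-04 to 0.0184.

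**Figure D1:**
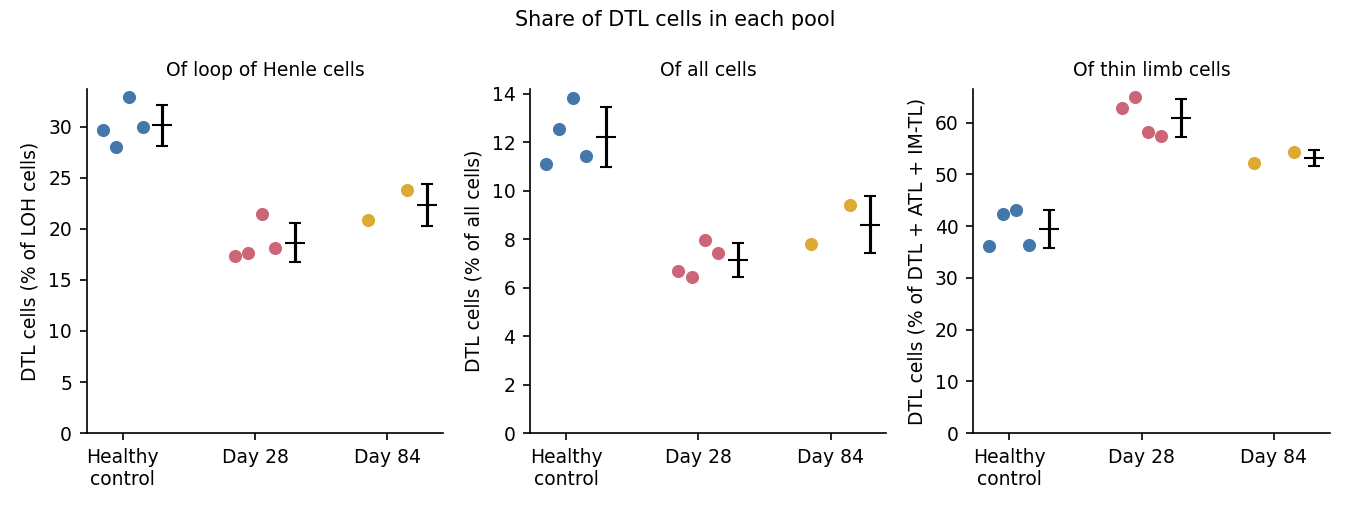
Share of DTL cells in each pool (points) as a percent of LOH cells, of all cells and of the thin limb cells (DTL, ATL and IM-TL), with the mean and SD of the pools of each condition beside the points (4, 4 and 2 pools). The shares of LOH cells and of all cells lie lower after R-UUO than in every control pool, while the share of thin limb cells lies higher.

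Within the thin limb the direction was the opposite. DTL cells were 36.1%, 42.3%, 43.0% and 36.3% of the DTL, ATL and IM-TL cells of the control pools. They were 62.7%, 65.0%, 58.1% and 57.3% at day 28 and 52.2% and 54.3% at day 84. Both times after R-UUO lay above every control pool, and DTL went from a minority to a majority of the thin limb cells. The log2 odds rose by 1.26 at day 28 (standard error 0.194, limma adjusted p = 4.69e-05, exact permutation p = 0.0286), and 66.7% of the 3 thin limb clusters passed. They rose by 0.81 at day 84 (standard error 0.238, limma adjusted p = 0.0131, exact permutation p = 0.0667), and 33.3% passed. The day 28 difference passed without each of the 10 pools in turn, at 1.17 to 1.33. The day 84 difference kept its direction at 0.74 to 0.88 but did not pass without day 84 pool 1 (limma adjusted p = 0.0730) or pool 2 (0.147), nor with the probe barcode as a term (0.90, limma adjusted p = 0.0540). Between day 84 and day 28 the log2 odds differed by -0.45 (limma adjusted p = 0.121), where 0 of 3 clusters passed and 1 had an unadjusted p under 0.05, and without day 28 pool 4 the difference was -0.52 and passed (limma adjusted p = 0.0366).

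The shares of LOH cells and of thin limb cells thus depend on what DTL is set against, and direct ratios of DTL cells to each other cluster do not mix the clusters of a denominator. At day 28, 20 of the 24 ratios passed (83.3%), with DTL higher against 6 clusters and lower against 14. At day 84, 9 of 24 passed (37.5%), all 9 with DTL lower. Without 1 pool the day 84 count ran from 6, without day 84 pool 1, to 13, without day 28 pool 4, and 4 of those 13 had DTL higher (ATL, IM-TL, EndoVR/papilla and Fib). Between day 84 and day 28 only the ratio to OSOM-TAL_a passed (4.17%), while 8 of 24 had an unadjusted p under 0.05. The median of the 24 log2 changes was -1.38 at day 28 and -0.83 at day 84. These ratios share the DTL count of each pool and are not independent of each other.

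Each thin limb cluster fell as a share of LOH cells, and DTL fell least. The log2 odds of ATL, DTL and IM-TL differed from the controls by -2.59, -0.91 and -1.92 at day 28. At day 84 the differences were -1.55, -0.59 and -1.43, and each passed with limma. At day 28, ATL and IM-TL were thus the only LOH clusters against which DTL cells rose relative to the controls. Clusters outside the LOH are given further below. In another mouse line, the study stained day 28 tissue for the Aqp1 protein and counted DTL cells as a percent of nephron lineage cells. These were fewer in the distal inner medulla, while ATL and other thin limb cells showed no change. That regional protein measure is unlike a share of recovered cells, and it fell where the DTL share of thin limb cells rose here. The study contrasts it with its own single-cell clusters, where all inner medullary LOH populations were reduced. At day 84 it found nephron lineage cells lost throughout the inner medulla. There were 0.857, 1.09, 1.25 and 0.919 DTL cells per ATL cell in the control pools, 2.45, 3.05, 2.24 and 3.99 at day 28, and 1.76 and 1.78 in the day 84 pools. The log2 ratio rose by 1.49 at day 28 (95% interval 0.942 to 2.04, limma adjusted p = 4.46e-04), and at day 84 it was 0.80 above the controls without passing (0.127 to 1.47, limma adjusted p = 0.0593), although it passed without day 28 pool 4 (0.0259). No pool after R-UUO overlapped the control pools. DTL cells per IM-TL cell were 1.66, 2.24, 1.91 and 1.49 in the controls, 5.36, 4.75, 3.67 and 2.02 at day 28 and 2.87 and 3.60 at day 84. This ratio rose by 1.04 on the log2 scale at day 28 (limma adjusted p = 0.0143), although day 28 pool 4 lay inside the control range. The interval at day 84 was -0.0665 to 1.72 around 0.83 (limma adjusted p = 0.113), and this ratio too passed without day 28 pool 4 (0.0291).

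Against the thick limb the ratios differed between its clusters. DTL cells per OSOM-TAL_a cell were 3.00, 2.07, 2.43 and 3.00 in the controls and 0.758, 0.836, 1.01 and 0.951 at day 28. They were 2.20 and 1.83 at day 84, apart from the day 28 pools and overlapping the controls. The log2 ratio fell by 1.55 at day 28 (limma adjusted p = 2.08e-04), was 0.37 below the controls at day 84 (limma adjusted p = 0.245), and was 1.18 higher at day 84 than at day 28 (limma adjusted p = 0.0328). That last call passed in 3 of its 12 alternatives, where its adjusted p ran from 0.0183 to 0.336. DTL cells per OSOM-TAL_b cell were 57.1, 6.60, 37.6 and 23.7 in the controls, 0.854, 0.968, 2.24 and 1.80 at day 28, with 1.14 and 0.828 in the day 84 pools. The controls themselves spread widely, and the ratio fell by 4.15 at day 28 (limma adjusted p = 4.12e-04) and differed by -4.62 at day 84 (limma adjusted p = 0.00108). Without control pool 2, the lowest control, the differences were -4.77 and -5.24. For ISOM-TAL, the TAL of the inner stripe that borders the inner medulla, the control ratios of 4.16, 1.80, 3.62 and 5.10 and the day 28 ratios of 1.26, 1.74, 2.63 and 4.86 overlapped. The day 84 ratios to ISOM-TAL were 5.58 and 2.90, and neither time differed from the controls beyond the spread (-0.57 with 95% interval -1.68 to 0.531, and 0.23 with -1.12 to 1.58). With the OSOM-TAL and ISOM-TAL clusters left out, the DTL share of the remaining LOH cells differed by -0.32 at day 28 (95% interval -0.984 to 0.350, limma adjusted p = 0.325) and by -0.04 at day 84 (-0.854 to 0.780, 0.924).

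InjuredLOH cells, which the study describes as partly dedifferentiated cells expressing injury genes, were rare in the controls. In its own reclustering, some injured LOH subclusters resembled thin limb populations, a DTL population among them, and others resembled TAL clusters. How many InjuredLOH cells derive from DTL cells was not tested here. There were 86.8, 56.6, 222 and 80.1 DTL cells per InjuredLOH cell in the control pools. At day 28 there were 1.11, 0.749, 0.883 and 0.514, and at day 84 there were 0.734 and 3.72. The 2 day 84 pools stand far apart from each other, yet both are below every control. The log2 ratio fell by 6.91 at day 28 (95% interval -8.20 to -5.62, limma adjusted p = 7.43e-06) and differed by -5.84 at day 84 (-7.41 to -4.26, 1.50e-04). The day 84 difference was -4.67 without pool 1 and -7.01 without pool 2, and passed in both cases (limma adjusted p = 0.00198 and 1.09e-04). With InjuredLOH left out of the LOH cells, the day 28 difference in the DTL share was -0.39 (95% interval -0.817 to 0.0409, limma adjusted p = 0.0855).

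Among the clusters outside the LOH with at least 100 cells in each of the 2 conditions compared, immune cells moved most against DTL at both times. There were 80.4, 43.7, 90.6 and 145 DTL cells per immune cell in the controls, 2.78, 1.78, 3.37 and 1.29 at day 28, then 2.63 and 5.14 at day 84. Immune cells were thus far scarcer beside DTL in every control pool. The log2 ratio fell by 5.23 at day 28 (limma adjusted p = 7.43e-06) and differed by -4.46 at day 84 (limma adjusted p = 1.50e-04). The ratio that moved least at day 28 was that to OM-CD_a, an outer medullary collecting duct cluster, with 1.36, 1.79, 1.35 and 1.38 DTL cells per cell in the controls and 1.52, 1.56, 1.95 and 1.77 at day 28. Its log2 difference was 0.21 (95% interval -0.237 to 0.661). At day 84 the least moved was Endo_a, an endothelial cluster, at -0.16 (-0.672 to 0.359), after a fall of 0.91 at day 28 (limma adjusted p = 0.00157). Between day 84 and day 28 the ratio to PT-S2, a proximal tubule cluster with fewer than 100 cells in the controls, moved most, by 2.97 (-0.288 to 6.22, limma adjusted p = 0.185), and that to intercalated cells (IC) least, by -0.17 (-1.10 to 0.768).

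The 6 ratios in which DTL was higher at day 28 were those to ATL, IM-TL, IM-CD, deepIM-CD, EndoVR/papilla and Fib, and the last 4 are named here after their values were seen. IM-CD and deepIM-CD are collecting duct clusters that the annotation places in the inner medulla, EndoVR/papilla is an endothelial cluster and Fib the fibroblasts. DTL rose by 1.58 on the log2 scale against IM-CD (limma adjusted p = 0.00517), by 1.65 against deepIM-CD (0.0279), by 2.30 against EndoVR/papilla (0.0367) and by 1.70 against Fib (0.00559). Day 28 pool 4 was the highest for each of these, with 6.96 DTL cells per IM-CD cell, 12.8 per deepIM-CD cell, 144.5 per EndoVR/papilla cell and 11.9 per Fib cell, against at most 3.86, 3.79, 12.4 and 7.53 in the other day 28 pools. That pool held 1156 DTL cells in all, so that its ratio of 144.5 rests on very few EndoVR/papilla cells. Without that pool the 4 changes were 1.32, 1.05, 1.30 and 1.44 in the same order, and all 4 passed (limma adjusted p from 0.0100 to 0.0276). Day 28 pool 3, with 1.40 DTL cells per deepIM-CD cell, lay inside the control range of 0.764 to 1.45, and the exact permutation p for that ratio was 0.0571. The ratio to deepIM-CD missed the threshold without control pool 4 or day 28 pool 2, and that to EndoVR/papilla without any 1 of the 4 control pools or day 28 pool 2. None of these 4 ratios passed at day 84 (limma adjusted p from 0.0719 to 0.436), but that to Fib did without control pool 2, day 28 pool 3 or day 28 pool 4, and that to EndoVR/papilla without day 28 pool 4. At both times the 14 and 9 ratios in which DTL was lower included InjuredLOH, OSOM-TAL_b, Immune and the injured collecting duct cells (InjuredCD), whose log2 ratio fell by 6.22 at day 28 (limma adjusted p = 6.02e-07) and differed by -6.53 at day 84 (limma adjusted p = 2.28e-06).

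**Figure D2:**
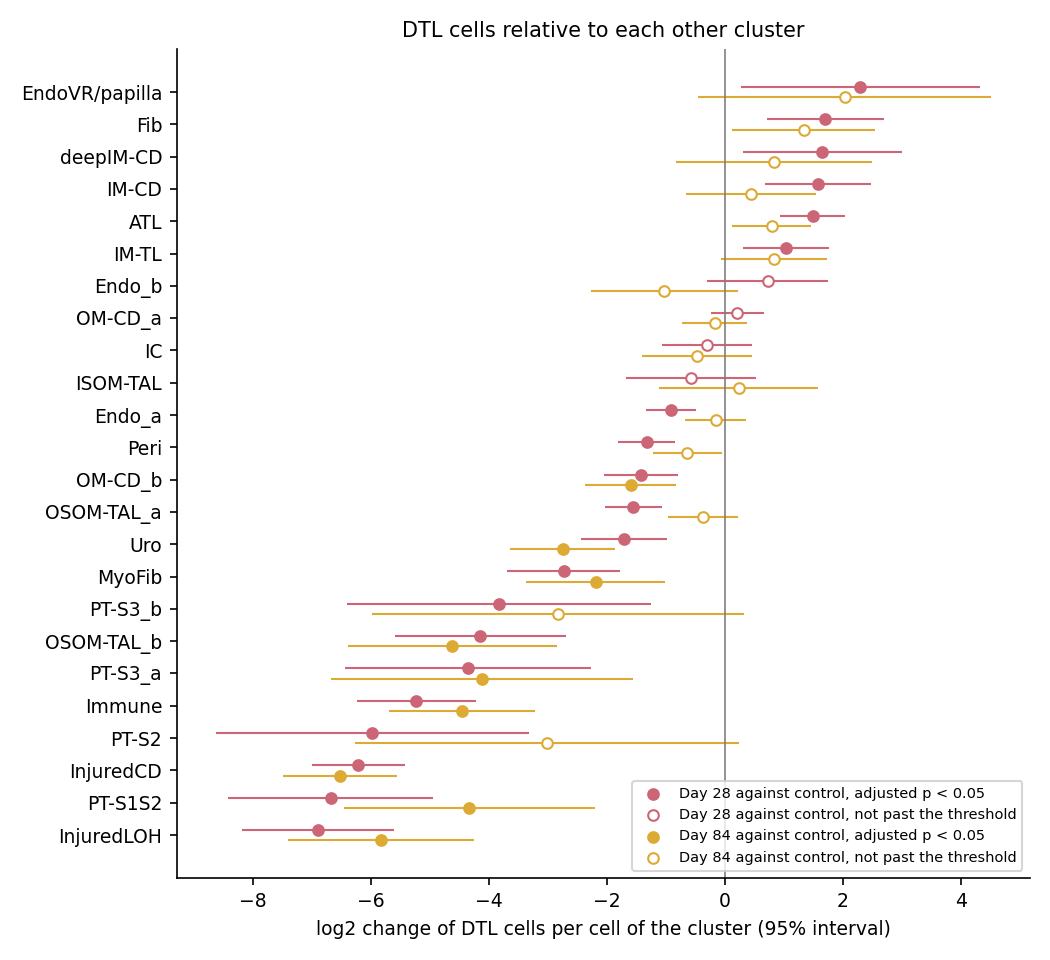
Log2 change in the number of DTL cells per cell of each of the 24 other clusters at day 28 and day 84 against healthy controls, with limma 95% intervals. Filled points passed an adjusted p of 0.05. DTL cells were higher at day 28 against the 6 clusters at the top, and lowest against InjuredLOH at the bottom, at -6.91.

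The depth of DTL cells followed that of their pool. The median UMI count per DTL cell was 1070 in control pool 1, the only pool with fractional UMI counts, and 1487, 1067 and 1105 in the other controls. It was 3129, 2122, 1788 and 1776 at day 28 and 831 and 756 at day 84, so that the 3 conditions did not overlap. The interquartile range of the DTL cells was 2226 to 4207 UMIs in day 28 pool 1 and 603 to 1000 in day 84 pool 2, the deepest and the shallowest pools. The median number of detected genes was 922, 1115, 847.5 and 867 in the controls, 1978, 1478, 1283 and 1295.5 at day 28, and 692 and 628 at day 84. On the log2 scale the median UMI count of DTL cells rose by 0.87 at day 28 (limma adjusted p = 5.94e-04, with 83.3% of 6 LOH clusters passing) and was 0.56 lower than the controls at day 84 (limma adjusted p = 0.0626, with 50% passing). It was 1.43 lower at day 84 than at day 28 (limma adjusted p = 9.81e-06), and 100% of the LOH clusters passed there.

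Set against the other LOH cells of the same pool, the DTL median differed little between conditions. The mix of those other cells changed, since it includes InjuredLOH cells, which were rare in the controls. At day 28 InjuredLOH cells had medians of 4220, 3098, 2297 and 2110.5 UMIs, above DTL in each pool. The DTL median was 93.5%, 88.8%, 88.0% and 96.5% of that of the other LOH cells in the control pools. At day 28 it was 89.1%, 85.6%, 82.3% and 94.5%, and at day 84 it was 91.5% and 109%. The log2 ratio differed from the controls' by -0.06 at day 28 (95% interval -0.244 to 0.120, limma adjusted p = 0.821). At day 84 the difference was 0.12 (-0.101 to 0.345, limma adjusted p = 0.321), and between the 2 times 0.18 (-0.0384 to 0.408, 0.150). Here 33.3%, 33.3% and 50% of the 6 LOH clusters passed in the 3 comparisons, with ATL and ISOM-TAL among those higher at day 84 and IM-TL and OSOM-TAL_b those lower at day 28.

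Against the thin limb clusters alone, DTL cells were relatively deeper at day 28. Set against all other LOH cells, the IM-TL median fell by 0.62 on the log2 scale at day 28 (limma adjusted p = 7.68e-06). The medians of DTL and ATL differed by only -0.06 and -0.05 in that comparison. ATL cells had median UMI counts of 974, 1218, 968 and 973 in the control pools and 2561, 1651, 1574 and 1512 at day 28. IM-TL cells had 1148, 1470.5, 1051 and 1158 in the controls and 2364.5, 1614, 1371 and 1048 at day 28. In every day 28 pool DTL had the highest median of the 3 clusters, while in the controls it was above IM-TL in 2 pools and below it in the other two. The median of DTL relative to the other thin limb cells rose by 0.27 on the log2 scale (standard error 0.0879, limma adjusted p = 0.00860, exact permutation p = 0.0286, with 66.7% of 3 clusters passing), and it passed without each pool in turn at 0.201 to 0.311. At day 84 it differed from the controls by -0.02 (95% interval -0.241 to 0.206, with 66.7% passing). It was 0.29 lower at day 84 than at day 28 (limma adjusted p = 0.0425, with 33.3% passing), a call that held in 3 of the 10 fits without 1 pool, with adjusted p from 0.00625 to 0.415.

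**Figure D3:**
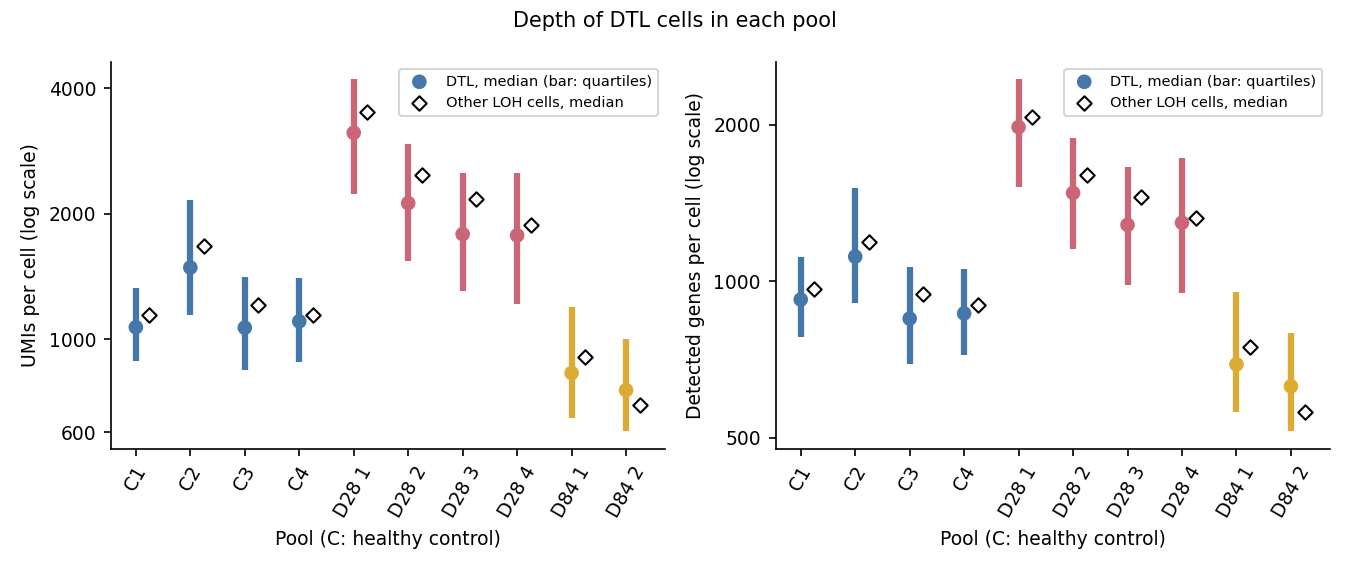
Median UMI count and median number of detected genes per DTL cell in each pool (coloured points; the vertical bars run from the lower to the upper quartile), with the median of the other LOH cells of the same pool as open diamonds, on log axes. DTL cells lie just below the other LOH cells in 9 of the 10 pools and above them in day 84 pool 2.

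DTL cells were least frequent among the most deeply read LOH cells. The LOH cells of each pool were ranked by UMIs and divided into 4 equal bins. As means over the 4 control pools, DTL made up 31.8%, 35.5%, 33.0% and 20.2% of the bins from the lowest to the highest. The means were 21.3%, 22.5%, 19.3% and 11.5% at day 28, against 19.5%, 24.1%, 28.6% and 17.0% in the day 84 pools. The top bin had the lowest DTL share in every pool but day 84 pool 2, where it was 21.9% against 17.4% in the lowest bin. The fall in the DTL share at day 28 passed the limma test in each of the 4 bins. At day 84 the third bin had the highest share in both pools. There the share differed from day 28 by 0.73 in log2 odds (limma adjusted p = 0.0165), and the adjusted p of that comparison ran from 0.0165 to 0.700 over its 24 tested alternatives.

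The number of genes that DTL cells showed at a given depth differed little from that of other LOH cells. Among cells with 1000 to 1500 UMIs, DTL cells had a median of 985.5, 970, 924 and 926 detected genes in the control pools, and other LOH cells had 984, 950, 944 and 923. At day 28 DTL cells had 850, 985.5, 969 and 973 against 982, 959, 952 and 964, and at day 84 946.5 and 884.5 against 942 and 877. Day 28 pool 1 stands apart, with 86.6% of the other cells' number where the other 9 pools lay between 97.9% and 103%, and it holds only 41 DTL cells in this range. The log2 difference in the ratio was -0.03 at day 28 (95% interval -0.149 to 0.0811), 0.01 at day 84 (-0.133 to 0.149) and 0.04 between the 2 times (-0.0989 to 0.183). Without day 28 pool 1 the day 28 difference was 0.02 (limma adjusted p = 0.271), the lowest over its alternatives, which ran to 0.958. Only DTL and ATL had enough cells in this range in every pool to enter that fit.

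Mitochondrial UMIs set DTL cells after R-UUO apart from those of the controls, as they did for other LOH clusters. The mean mitochondrial percent of DTL cells was 1.16, 1.95, 1.26 and 1.20 in the control pools, 0.328, 0.0179, 0.0166 and 0.0168 at day 28 and 0.0724 and 0 at day 84. Cells with no mitochondrial UMI were 4, 0, 26 and 14 of the control DTL cells, which is 0.184%, 0% (0 of 3057 cells, which allows a share of up to 0.0981%), 1.30% and 0.603%. The day 28 pools had 33.5%, 80.1%, 87.6% and 85.0% such DTL cells, and the day 84 pools 68.6% and 100%. In day 84 pool 2 none of the 2237 DTL cells had a mitochondrial UMI, which allows up to 0.134% of cells with one. These limits cover counting error only.

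The other LOH cells of the same pools showed the same order. Cells with no mitochondrial UMI were 0.156%, 0%, 1.28% and 1.53% of them in the controls, 44.0%, 66.7%, 73.3% and 75.3% at day 28 and 57.1% and 90.2% at day 84. ATL and IM-TL reached 100% in day 84 pool 2 as DTL did, while ISOM-TAL, whose cells are rich in mitochondria, stood at 10.2% there and at 0.581% to 23.1% in the day 28 pools. At 1000 to 1500 UMIs the share in DTL cells was 0% to 0.546% in the controls, 22.0% to 90.2% at day 28 and 68.5% and 100% at day 84, so the contrast was present at like depth. The log2 odds of having no mitochondrial UMI, relative to the other LOH cells, differed by 0.55 at day 28 (95% interval -2.78 to 3.87, limma adjusted p = 0.771) and by 4.72 at day 84 (0.645 to 8.79, 0.0727), and by 4.17 between the 2 times (0.0972 to 8.24, 0.212). Of 6 LOH clusters, 0%, 16.7% and 0% passed in these comparisons with limma, and 1, 3 and 1 had an unadjusted p under 0.05. The day 84 value rests on pool 2, since it was 0.60 without that pool (limma adjusted p = 0.824) and 8.83 without pool 1 (1.63e-04). Mitochondrial reads moved with the condition in DTL and in other cells alike, and their part in the differences in DTL share was not tested.

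**Figure D4:**
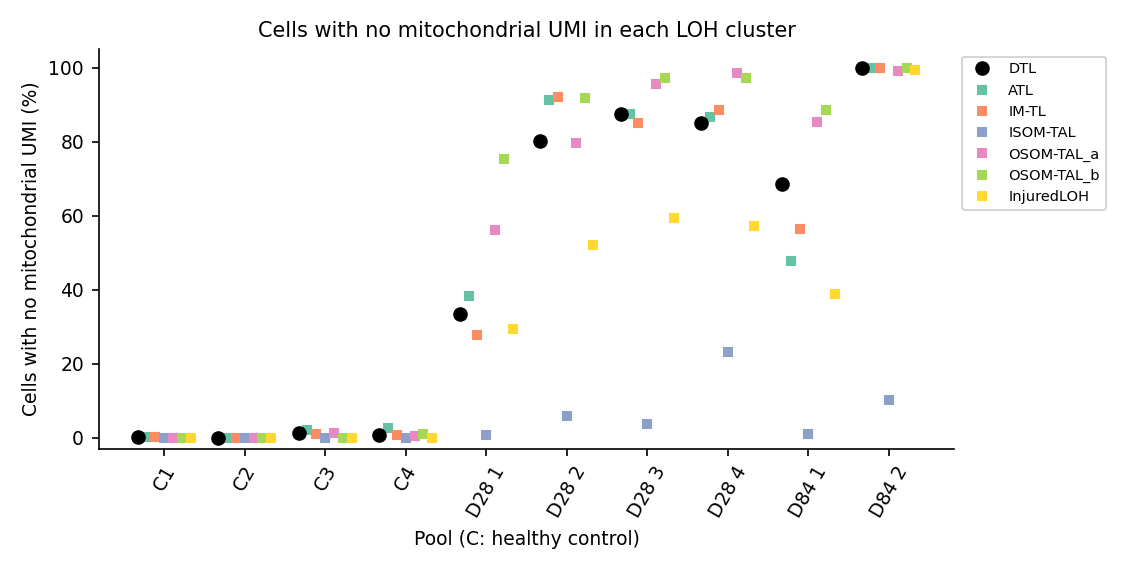
Percent of cells with no mitochondrial UMI in each LOH cluster of each pool, with DTL as black circles and the other clusters as coloured squares. DTL cells range from 0% to 1.30% over the 4 control pools and from 33.5% to 87.6% over the day 28 pools, and are at 68.6% and 100% at day 84, and ISOM-TAL lies lowest of the LOH clusters in each pool after R-UUO.

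Several pools were run together, and a droplet could hold cells of more than 1 pool. The share of DTL cells in a droplet that also held a cell of another pool of the condition was 52.9% to 60.9% in the controls. It was 46.9% to 48.4% at day 28, and 25.8% and 22.6% at day 84. DTL cells alone in their droplet had median UMI counts close to those of DTL cells that shared one, for example 1471 against 1495 in control pool 2 and 829 against 846 in day 84 pool 1. The cell sharing a droplet with a DTL cell was itself DTL in 12.5% of cases in the controls, 7.67% at day 28 and 6.65% at day 84. For cells of other clusters the partner was DTL in 11.8%, 6.92% and 8.56% of cases. The DTL share of all cells pooled was 12.1%, 7.18% and 8.68%. With the cells alone in their droplet, the day 84 fall in the DTL share of all cells passed, at -0.59 (limma adjusted p = 0.0305, in a range of 0.0118 to 0.288 over its alternatives).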

How the data were processed

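Fixed-RNA probe assays of mouse medullas were run in 10 pools (4 healthy control, 4 day 28, 2 day 84). Per the submitters' processing notes, the authors used Cell Ranger 7.1 and mm10. They excluded cells with under 300 genes or over 10% mitochondrial reads, removed ambient RNA with SoupX, dropped doublets by scDblFinder or mixed signatures, and clustered with Seurat (versions not given in the sources used here). For each cell the authors deposited corrected UMIs (whole-number counts, but fractional expected counts in control pool 1), a count of detected genes and a percent of mitochondrial UMIs. No DTL cell lay outside the stated filters. Pools, clusters and cell types were taken as deposited.

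The pool was the replicate. The p-values cover the spread between pools within 1 droplet run per condition. Cells were counted per cluster and pool, 0.5 cells were added to both parts, and log2 odds or ratios were compared with limma 3.58.1 (R 4.3.3; lmFit, eBayes, 3 conditions in one fit, two-sided). Benjamini-Hochberg adjustment ran over the clusters tested. Exact permutation tests compared absolute differences of means. Medians needed at least 20 cells of a cluster in every pool. Other tools were edgeR 4.0.16, Python 3.11.15, pandas 2.3.3, scipy 1.17.1 and matplotlib 3.10.9. Simulated data served to test the fit. Named by rule were DTL, the LOH clusters and the most and least moved ratio among clusters with at least 100 cells in both conditions compared. Members and lists were chosen with earlier results of these data known. Comparisons within the thin limb were planned as an alternative and are given as results. Alternatives were a stricter filter (500 genes, 5% mitochondrial), other denominators and references, 5 added cells, edgeR, and each pool left out. The probe barcode, lone droplets, 4 UMI bins and the alternatives within the thin limb were added after seeing the data.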

Additional observations from a re-analysis of the deposited data

Results flagged for a closer look

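In 34 groups of 4 pools, 6 values lay far from the other 3. Independent groups would give about 1 in 20, or 1.7, by chance. The groups hold related measures of the same pools and are not independent, so that no excess over chance can be read from this. Control pool 2 had the deepest control DTL cells, with a median of 1487 UMIs against 1067 to 1105 in the others. The same pool had the highest mean mitochondrial percent of DTL cells among the controls, 1.95 against 1.16 to 1.26.

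Day 28 pool 1 was apart in 4 measures of DTL cells. Its DTL cells with no mitochondrial UMI were 33.5% against 80.1% to 87.6% in the other day 28 pools, and their mean mitochondrial percent was 0.328 against 0.0166 to 0.0179. The SD of their log2 UMI counts was 0.946 against 0.872 to 0.875. At 1000 to 1500 UMIs they showed 86.6% of the genes of other LOH cells against 101% to 103%. The DTL share of LOH cells in this pool, 17.3%, was close to that of the other day 28 pools.

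The ratio of DTL to OSOM-TAL_a cells differed between the 2 times after R-UUO, by 1.18 on the log2 scale (limma adjusted p = 0.0328). This ratio was low in 4 of 4 day 28 pools and inside the control range in 1 of 2 day 84 pools. The call passed in only 3 of its 12 alternatives, and time and droplet run cannot be told apart.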

How the results depend on the processing

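Of 390 alternative values of the main comparisons, 321 kept their direction and their side of the threshold, and of 288 for single ratios 270 did. These counts include fits that cannot move the difference, since they leave out a pool of the condition not compared. They also include comparisons that did not pass and stayed so. Changes are on the log2 scale, and the cause was not tested where a value changed.

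The DTL share of LOH cells at day 28 lost its call without InjuredLOH (-0.39) or the outer medullary TAL clusters (-0.32) in the denominator, and reversed among thin limb clusters (1.26). At day 84 it lost its call with the stricter filter (-0.50), the probe barcode (-0.68), without InjuredLOH (-0.21) or outer TAL (-0.037), and in UMI bins 2 (-0.79), 3 (-0.31) and 4 (-0.36), and reversed among thin limb clusters (0.81). Without 1 pool it ranged from -0.71 to -0.47. Day 84 against day 28 reversed among thin limb clusters (-0.45) and in the lowest bin (-0.16), and passed in bin 3 (0.73). For all cells, the day 84 share passed with edgeR (-0.51) and with lone cells only (-0.59). Among thin limb cells the day 84 share missed with the probe barcode (0.90). It ranged from 0.74 to 0.88 without 1 pool, and day 84 against day 28 from -0.52 to -0.36.

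At day 84 the ratio to ISOM-TAL reversed with the probe barcode (-0.25) and ranged from -0.24 to 0.70 without 1 pool, and that to Endo_a from -0.32 to 0.0035. Between the 2 times the ratio to IM-TL reversed with the probe barcode (0.063). Without 1 pool the ratio to IC ranged from -0.35 to 0.14 and that to InjuredLOH from -0.10 to 2.24. At day 84 the ratio to InjuredLOH ranged from -7.01 to -4.67, and 6 to 13 ratios passed without 1 pool. Between the 2 times the number that passed was 0 with the probe barcode and 0 to 3 without 1 pool.

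The median UMI count relative to other LOH cells reversed at day 28 against all other cells (0.13), other thin limb clusters (0.27) or no reference (0.87). At day 84 it reversed against thin limb clusters (-0.018), with the stricter filter (-0.014) and with no reference (-0.56), and ranged from -0.0027 to 0.25 without 1 pool. Between the 2 times it reversed against all other cells (-0.067), thin limb clusters (-0.29) and with no reference (-1.43), passed with the probe barcode (0.18), and ranged from 0.060 to 0.31. Relative to thin limb cells, the day 84 value ranged from -0.10 to 0.066 without 1 pool. The difference between the 2 times missed the threshold with the probe barcode (-0.30) and with lone cells only (-0.29), and ranged from -0.37 to -0.20.

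Detected genes at matched UMIs reversed at day 28 against all other cells (0.033) and at 500 to 750 UMIs (0.025), and ranged from -0.058 to 0.025 without 1 pool. At day 84 they reversed against thin limb clusters (-0.034) and with the probe barcode (-0.011), and ranged from -0.0027 to 0.018. Between the 2 times they reversed against all other cells (-0.021) and ranged from -0.017 to 0.066. The share with no mitochondrial UMI reversed at day 28 against thin limb clusters (-0.040). At day 84 it passed against all other cells (4.07) and ranged from 0.60 to 8.83 without 1 pool, and from 0.056 to 8.28 between the 2 times.

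The 2 day 84 pools limit that time point, since leaving out either takes the calls on the DTL share of LOH and thin limb cells, and the former is also lost without control pool 3 (-0.52). A pool left alone in its group was assumed to vary like the others.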
